A study of Mus musculus with 36 samples.

Results

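NIH3T3 is an established mouse fibroblast line, and the cells profiled here carried an Erbb2 gene under tet-off control. The data described are the 4 arrays of cells given tetracycline for 1 h, chosen by their titles, set against the arrays of untreated cells; they are 4 of 36 deposited arrays. The tested cells were Erbb2 transfected NIH3T3 cells after 1 h of tetracycline, and the cells they were set against were Erbb2 transfected NIH3T3 cells with no tetracycline. On every array the other channel held RNA of untreated Erbb2 transfected cells, per the sample labels. Both groups therefore carry the same transgene, and the only stated difference is the tetracycline. The labels name no clone, dose or promoter of the transgene. Their protocols also mention organs and pooled reference RNA of 6 control animals, and the design text counts 2 different lines among the untreated controls, so the RNA behind the untreated arrays is not fully settled.

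The ERBB2 protein is a cell surface kinase related to the EGF receptor; it feeds the RAS, ERK and AKT pathways and transforms fibroblasts when overproduced. In a tet-off system tetracycline stops transcription of the transgene. Fibroblasts make most of the extracellular matrix: fibrillar collagens, the proteoglycans that coat them, enzymes that cross-link them, and secreted proteases that remodel them. Immediate early genes such as Egr1 and Fos are transcribed within minutes of ERK signalling and their messages are short-lived.

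Each value is a log2 ratio of the cells in channel 1 over the untreated RNA in channel 2, centred on the array's median, so that 0 means the same share of RNA in both channels. Channel 1 was labelled with Cy5 in replicates 1 and 2 and with Cy3 in replicates 3 and 4, whose values were multiplied by -1. The direction is assumed, since no source used here names the numerator. With the opposite numerator every difference would change sign at the same size. Turning the Cy3 arrays is a separate choice, and with them left unturned 54 of the 58 named genes that passed reversed sign. Unturned, 1 h values that swap sign with the dye cancel within the group, so that fit does not bear on the numerator. The columns of replicates 1 and 2 of the untreated cells were 0.771 apart throughout (SD 0.0005 over 19772 probes) and were counted as 1 array, called untreated array 1, which left 3 untreated arrays. The 1 h arrays held 19394 to 19629 values each, with interquartile ranges of 0.412 to 0.443, and the untreated arrays held 19441 to 20010 values, with interquartile ranges of 0.492 to 0.700. Once turned, untreated array 1 correlated with arrays 3 and 4 at -0.4669 and -0.3776 (Spearman, across probes), so the untreated arrays stand apart by dye. The 1 h arrays of opposite dye correlated weakly, between 0.0590 and 0.0980 once turned. The labels do not say that replicates came from separate cultures, so each p-value measures a spread that may be technical, and precision is limited by how few arrays there are. Differences are 1 h minus untreated from limma over 23 arrays of untreated cells and of 1 to 24 h, and "passed" means a Benjamini-Hochberg adjusted p under 0.05 over all probes tested. The spread behind each SE and p-value is pooled over these 23 arrays. Arrays of 1 to 24 h had interquartile ranges of 0.357 to 0.504, below those of untreated arrays 3 and 4 (0.699 and 0.700). An SE can therefore be smaller than the untreated arrays alone would give.

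Of 18269 probes with at least 3 values in each group, 196 passed (1.07%). At 1 h 79 were higher (0.432%) and 117 lower (0.64%), by at least 2-fold for 36 and 25 of them. The called probes with a symbol stood for 135 genes, 56 higher and 79 lower. The values of the 2 groups did not overlap for 192 of the 196, against 7.67% of all probes tested. The calls were made on these same values, so the separation is no further support for them. All 4 arrays at 1 h were below 0 for 106 of the 117 lower probes, and all 4 were above 0 for 56 of the 79 higher probes. The same limit holds for these signs, and their share over all probes was not counted. Because the other channel already held untreated RNA, the 1 h ratios were also tested against 0. This test subtracts no untreated mean but uses the same 1 h arrays and the same probes. It comes from the same fit, so the untreated arrays still enter its spread and its dye term, and it is not independent of them. There 508 probes passed (2.78%), and among them were 84 of the 117 lower and 49 of the 79 higher probes with the same sign. Without untreated array 1, which left only Cy3 arrays among the untreated, 2521 probes passed, without untreated array 4 the count was 101, and without 1 h replicates 2, 3 or 4 it was 121, 112 or 127. With the 1 h and untreated arrays alone in the fit 0 passed (1115 at an unadjusted p under 0.05). The split of calls also moved with the scaling, to 20 higher and 216 lower with uncentred values, where the median difference over all probes was -0.215, and to 30 higher and 74 lower after quantile normalization.

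**Figure D1:**
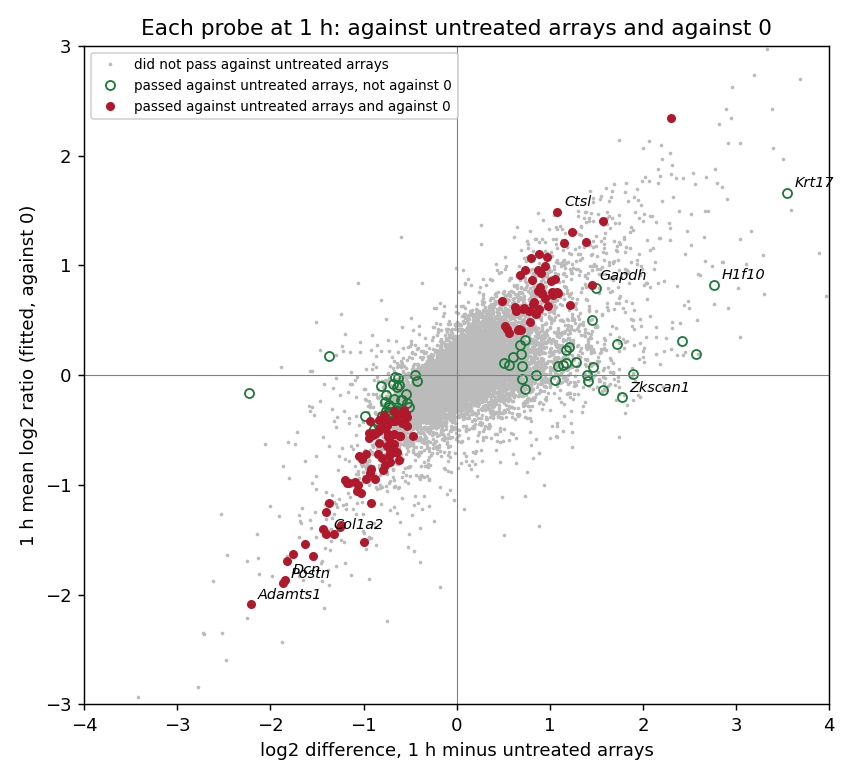
Each point is 1 probe: the horizontal axis gives the log2 difference of the 1 h arrays minus the untreated arrays, and the vertical axis the fitted mean log2 ratio of the 1 h arrays against 0. Filled red points passed both tests, open green points passed only against the untreated arrays; 26 of the 30 open points on the right have a 1 h mean within 0.5 of 0, and Krt17, the furthest right of the named genes, lies at 1.66 on the vertical axis.

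Of the 15 named genes with the greatest falls at 1 h, 9 stand on 4 lists of matrix genes, namely collagens, collagen processing, proteoglycans, and glycoproteins with elastic fibres. With the probes of a gene averaged, 14 of the 68 measured genes of these lists fell (20.6%, against 0.543% of all 9201 genes), 0 rose, 54 did not pass, and their median was -0.13. These lists, like the others below, were chosen with earlier results of these data known. The higher share is therefore no independent support for a fall of matrix genes. The greatest falls were those of Adamts1, Postn, Dcn, Lox and Naprt, each over 3-fold, followed by collagens I, III and V. Sequences before the start are shown for Adamts1 and 4 genes of the matrix lists, Postn, Col3a1, Col1a2 and Sparc, since they moved together, and for Gapdh, which was higher; Dcn, Col1a1 and Lox are named only. Each line gives the 250 bases before the RefSeq start on the gene's own strand, build GRCm38.p6, with matches to the 4 searched motifs in capitals. Both strands were searched. The TATA box was read as TATAAA and the GC box as GGGCGG. The AP-1 site was read as TGANTCA, where N is any base, and the CCAAT box by the letters of its name. Postn has 2 starts in the table and the first is shown. The start given for Gapdh lies inside the annotated gene (chr6:125161852-125166467), so its stretch is not upstream of the whole gene.
Postn (chr3:54359017-54359266, plus strand): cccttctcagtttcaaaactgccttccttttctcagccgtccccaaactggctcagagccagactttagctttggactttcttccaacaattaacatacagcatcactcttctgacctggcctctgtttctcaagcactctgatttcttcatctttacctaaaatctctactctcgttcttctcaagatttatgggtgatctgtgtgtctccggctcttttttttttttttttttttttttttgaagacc
Adamts1 (chr16:85803114-85803363, minus strand): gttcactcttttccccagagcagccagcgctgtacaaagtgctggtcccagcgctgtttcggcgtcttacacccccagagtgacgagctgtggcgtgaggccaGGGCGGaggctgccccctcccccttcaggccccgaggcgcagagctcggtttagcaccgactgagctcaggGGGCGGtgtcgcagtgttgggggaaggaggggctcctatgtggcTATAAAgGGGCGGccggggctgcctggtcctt
Col3a1 (chr1:45311288-45311537, plus strand): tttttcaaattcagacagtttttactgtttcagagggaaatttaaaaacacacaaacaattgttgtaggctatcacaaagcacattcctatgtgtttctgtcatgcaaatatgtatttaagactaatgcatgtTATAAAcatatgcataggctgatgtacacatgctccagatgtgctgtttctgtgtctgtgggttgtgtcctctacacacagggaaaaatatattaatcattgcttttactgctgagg
Col1a2 (chr6:4505368-4505617, plus strand): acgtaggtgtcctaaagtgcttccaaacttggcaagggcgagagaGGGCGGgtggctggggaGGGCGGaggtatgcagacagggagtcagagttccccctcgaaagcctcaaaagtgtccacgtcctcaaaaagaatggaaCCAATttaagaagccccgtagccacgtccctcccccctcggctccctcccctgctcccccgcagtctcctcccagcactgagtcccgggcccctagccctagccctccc
Sparc (chr11:55420081-55420330, minus strand): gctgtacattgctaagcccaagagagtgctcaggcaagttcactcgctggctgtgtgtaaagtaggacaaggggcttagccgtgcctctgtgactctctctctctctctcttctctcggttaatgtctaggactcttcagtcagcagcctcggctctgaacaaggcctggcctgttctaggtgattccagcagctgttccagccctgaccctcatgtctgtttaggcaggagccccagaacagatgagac
Gapdh (chr6:125165774-125166023, minus strand): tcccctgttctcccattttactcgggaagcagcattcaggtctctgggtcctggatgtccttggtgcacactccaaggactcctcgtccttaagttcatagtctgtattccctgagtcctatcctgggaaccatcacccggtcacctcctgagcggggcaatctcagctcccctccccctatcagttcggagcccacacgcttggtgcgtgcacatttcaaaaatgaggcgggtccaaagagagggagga
Over all 32851 RefSeq promoters of the table, taken over 250 bases before the start, 12.4% held the TATA box, 33.8% the CCAAT box, 32.7% the GC box and 6.7% the AP-1 site. Among the 6 stretches shown, the TATA box lay in 2, Adamts1 with its first base 32 before the start and Col3a1 with its first base 117 before it. The GC box lay in 2, with 3 matches in Adamts1 and 2 in Col1a2, and the CCAAT box in 1, Col1a2. The printed matches do not overlap each other. Postn, Sparc and Gapdh held none of the 4 in these windows, and the AP-1 site was in 0 of the 6. These are matches of letters only.

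Collagens I, III and V form the fibrils of connective tissue. Col1a2, the second chain of collagen I, had 3 probes that passed. The probe with the greatest difference read -1.38, -1.42, -1.53 and -1.48 on the 1 h arrays, against -0.24, -0.02 and 0.08 on the untreated arrays. All 4 values at 1 h lay more than 1 log2 unit below the lowest untreated value, and Col1a2 fell by 1.40 (SE 0.13, adjusted p = 7.72e-06). Its other 2 tested probes differed by -1.31 and -1.25, and a further probe had too few untreated values to be tested. Col1a1, the first chain, read -1.69, -1.76, -1.85 and -1.30 at 1 h, against -0.21, -0.11 and -0.05 in untreated cells. It fell by 1.55 (SE 0.15, adjusted p = 8.17e-06) on this probe, and on another it fell by 0.99 (SE 0.12, adjusted p = 0.00024), where the untreated values were themselves below 0, at -0.47, -0.72 and -0.40. Col3a1, for collagen III, was the least even, at -1.77, -1.64, -1.39 and -0.81 on the 1 h arrays and -0.25, 0.15 and 0.25 on the untreated. The groups did not overlap, and the difference was -1.44 (SE 0.18, adjusted p = 0.00024). Col5a2, which helps to start collagen I fibrils, differed by -1.40 (SE 0.21, adjusted p = 0.00171) on one probe and by -0.67 on another that did not pass (adjusted p = 0.0762). Col2a1, the collagen of cartilage, differed by -1.07 on one probe (adjusted p = 0.00553) and by 0.64 on another (adjusted p = 0.429), so its probes disagreed in sign.

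Counted by gene, with the probes of a gene averaged, 88 of 9201 genes passed (0.956%), 38 higher (0.413%) and 50 lower (0.543%), and the median difference over all genes was 0.016. Of 16 measured genes of the collagen list 5 fell and 11 did not pass, with a median of -0.23. The 5 were Col1a1, Col1a2, Col3a1, Col5a2 and Col6a1. Col6a1, for a beaded-filament collagen, had a gene mean difference of -0.91 (SE 0.15). The other 11 collagens of the list spread around 0, since 5 of the 16 genes had a positive difference. Col2a1 is not on the list, and by gene it differed by -0.21 without passing (adjusted p = 0.627). As a list over arrays, the collagen medians were -0.36, -0.57, -0.26 and -0.22 at 1 h and -0.02, -0.22 and -0.28 in untreated cells, which overlap.

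Enzymes and chaperones that finish collagen were split. Lox, lysyl oxidase, which cross-links collagen and elastin outside the cell, read -1.57, -1.90, -1.49 and -1.83 at 1 h, against -0.18, 0.31 and 0.42 in untreated cells. It fell by 1.83 (SE 0.20, adjusted p = 7.87e-05), and its other 2 probes fell by 1.63 and 1.05 and also passed. Serpinh1, the collagen chaperone of the endoplasmic reticulum, fell by 0.68 on one probe (SE 0.14, adjusted p = 0.0179), while its other probe, at -0.36, did not pass. Of 16 measured genes of collagen processing, Lox and Serpinh1 fell, 14 did not pass, and the median was 0.03.

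Among proteoglycans, decorin (Dcn), which binds collagen fibrils and limits their width, was close to the same value on every 1 h array. It read -1.76, -1.95, -1.84 and -1.92 at 1 h, against -0.17, 0.19 and 0.04 in untreated cells. Before the Cy3 arrays were turned, the 1 h values were -1.76 and -1.95 on the Cy5 arrays and 1.84 and 1.92 on the Cy3 arrays, so the sign followed the dye swap. Dcn fell by 1.84 (SE 0.17, adjusted p = 7.72e-06), about 3.59-fold. Dermatopontin (Dpt), which binds decorin and collagen, read -0.92, -1.18, -1.20 and -1.37 at 1 h, against -0.24, 0.63 and 0.18 in untreated cells. It fell by 1.37 (SE 0.17, adjusted p = 0.00024), and its second probe fell by 1.20 (SE 0.22). Of 13 measured genes of the proteoglycan list, Dcn and Dpt fell and 11 did not pass, with a median of -0.13.

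Matrix glycoproteins carry the cells' attachments. Periostin (Postn), secreted by fibroblasts and found with collagen and fibronectin, read -1.85, -2.20, -1.81 and -1.74 at 1 h, against -0.19, -0.22 and 0.31 in untreated cells. Every 1 h value was below every untreated value, and Postn fell by 1.86 (SE 0.24, adjusted p = 0.000391). Sparc, a collagen-binding protein made by matrix-producing cells, read -1.01, -1.16, -1.05 and -1.10 at 1 h, against -0.09, -0.06 and 0.00 in untreated cells. It fell by 1.03 (SE 0.14, adjusted p = 0.000686) on this probe and by 0.72 on another, while its remaining probe, at -0.31, did not pass. Fibronectin (Fn1), the main adhesive glycoprotein of fibroblasts, had 5 tested probes, of which 3 passed with differences of -0.61, -0.73 and -0.56, and 2, at -0.66 and -0.32, did not. Fbln5, for an elastic fibre protein, fell by 0.77 (SE 0.16, adjusted p = 0.0203). Of 23 measured glycoprotein and elastic fibre genes, Postn, Sparc, Fn1, Fbln5 and Fbln2 fell, 18 did not pass, and the median was -0.15.

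Secreted proteases moved in both directions. Adamts1, a secreted metalloprotease that cleaves proteoglycans, showed the largest fall among the named genes that passed. It read -2.14, -2.35, -1.95 and -1.92 at 1 h, against -0.43, 0.21 and 0.68 in untreated cells, and fell by 2.21 (SE 0.23, adjusted p = 2.76e-05), about 4.64-fold. Cathepsin L (Ctsl), a lysosomal protease that transformed fibroblasts are known to secrete, read 1.40, 1.44, 1.33 and 1.79 at 1 h, against 0.09, 0.41 and 0.68 in untreated cells. It rose by 1.08 (SE 0.17, adjusted p = 0.00273), a call lost with uncentred values (0.87, adjusted p = 0.067) and after quantile normalization (0.83, adjusted p = 0.279). Mmp2, gelatinase A, was at -0.57, -0.53, -0.60 and -0.52 at 1 h, against -0.03, -0.17 and -0.09 in untreated cells. It fell by 0.47 (SE 0.11), at the edge of the threshold (adjusted p = 0.0496). By gene, Adamts1 fell and Ctsl rose among 21 measured proteases and inhibitors, and 19 did not pass (median -0.09). Among 23 integrins and adhesion receptors only Vcam1, which binds white blood cells, fell, by 0.74 (SE 0.15, adjusted p = 0.0183), and 22 did not pass.

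**Figure D2:**
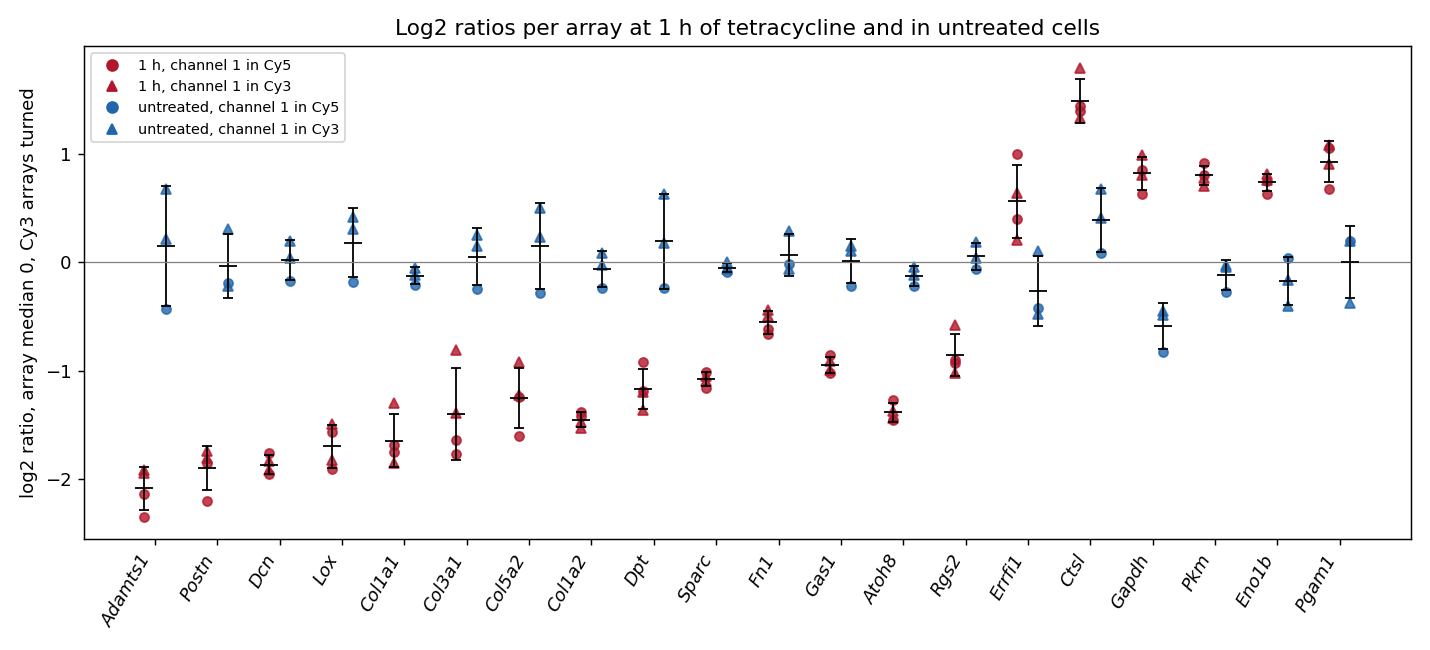
Log2 ratios on each 1 h array (red, left of each pair) and each untreated array (blue, right) for 20 named genes, with the mean and SD of the group as bars; circles are arrays with channel 1 in Cy5, triangles arrays with it in Cy3, turned. The red points of matrix genes from Adamts1 to Sparc all lie below -0.8 and below the blue points.

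Besides matrix genes, regulators of growth and signalling were among the lower genes. Gas1, named for its expression in growth-arrested NIH3T3 cells, read -1.02, -0.86, -0.99 and -0.91 at 1 h, against -0.22, 0.11 and 0.15 in untreated cells. It fell by 0.97 (SE 0.13, adjusted p = 0.000429), and it was the 1 of 19 measured growth arrest and p53 target genes that passed by gene. Ccng1, for cyclin G1, a p53 target, fell by 0.95 on one probe (SE 0.20, adjusted p = 0.0209), while 2 others, at 0.33 and -0.37, did not pass. Atoh8, a helix-loop-helix transcription factor, read -1.27, -1.46, -1.44 and -1.37 at 1 h, against -0.22, -0.12 and -0.04 in untreated cells. It fell by 1.26 (SE 0.11, adjusted p = 7.72e-06) and was the 1 of 14 genes on the TGF-beta and BMP list that passed. Rgs2, which switches off heterotrimeric G proteins, read -0.90, -0.93, -0.58 and -1.02 at 1 h, against -0.06, 0.04 and 0.19 in untreated cells. It fell by 0.92 (SE 0.16, adjusted p = 0.00717), and its second probe fell by 1.01 (SE 0.22, adjusted p = 0.0295).

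Several lower genes lay outside the lists. Naprt, an enzyme of NAD synthesis from nicotinic acid, read -1.12, -1.37, -1.87 and -2.15 at 1 h, against -0.26, 0.33 and 0.20 in untreated cells. It fell by 1.76 (SE 0.22, adjusted p = 0.000291), with no overlap and with the 2 Cy3 arrays lower than the 2 Cy5 arrays. Lipoprotein lipase (Lpl), which frees fatty acids from lipoproteins, fell by 1.18 (SE 0.18, adjusted p = 0.00254). Itm2b, an integral membrane protein, fell by 1.16 (SE 0.20) and 1.09 (SE 0.13) on 2 probes, while the other one, at 0.28, did not pass.

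On the ERBB and ERK side, few genes passed. Errfi1, an inducible protein that binds and inhibits ERBB receptors, read 0.40, 1.00, 0.64 and 0.21 at 1 h, against -0.42, -0.48 and 0.11 in untreated cells. It rose by 0.84 (SE 0.18, adjusted p = 0.0236), the groups did not overlap, and the call was lost with uncentred values (0.63, adjusted p = 0.155). Errfi1 stands on 2 lists, and it was the 1 of 11 measured ERK feedback genes and the 1 of 13 measured ERBB genes that passed by gene. Hsp90aa1, a chaperone of ERBB2 and other kinases, rose by 0.81 on one probe (SE 0.17, adjusted p = 0.0231), against -0.12 on its other probe, which did not pass. The 5 Egfr probes differed by -0.12 to 0.60 and did not pass, with adjusted p from 0.0922 to 0.919. Of 22 RAS, RAF, ERK, PI3K and AKT pathway genes 0 passed at 1 h, and of 26 growth factor and cytokine genes likewise 0. The medians of these 2 lists were -0.07 and -0.02. Erbb2 itself, Dusp6 and Ccnd1 were not analysed here, so the shut-off of the transgene was not checked, and Erbb3, Fos and Myc had too few values to be tested.

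Immediate early genes did not pass at 1 h. Egr1, a zinc finger factor induced through ERK, read -0.62, -0.24, -0.70 and -0.63 on the 1 h arrays, against -0.43, -0.56 and -0.22 on the untreated arrays. The groups overlapped, and the difference was -0.19 (SE 0.25, adjusted p = 0.82). Junb, an AP-1 subunit, differed by -0.01 (SE 0.14, adjusted p = 0.979) and Ier2 by -0.25 (SE 0.14, adjusted p = 0.493). Ier3, an ERK-regulated survival gene, lay above the untreated values on both probes, at 0.62 (SE 0.18, adjusted p = 0.122) and 0.59 (SE 0.19, adjusted p = 0.174), without passing. Against 0 both Ier3 probes passed, with adjusted p of 0.00504 and 0.0123. Of 15 measured immediate early genes 0 passed by gene, and the median was -0.01.

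Glycolytic genes were among the higher genes that also passed against 0. Gapdh, the glycolytic dehydrogenase, read 0.85, 0.63, 0.99 and 0.81 at 1 h, against -0.83, -0.49 and -0.45 in untreated cells. It rose by 1.45 (SE 0.10, adjusted p = 3.77e-07), of which 0.82 (SE 0.07) was the ratio at 1 h against 0 and the rest the negative untreated values. A second Gapdh probe rose by 1.03 (SE 0.14, adjusted p = 0.000571), and another had too few values to be tested. Pkm, pyruvate kinase, read 0.92, 0.80, 0.78 and 0.71 at 1 h, against -0.27, -0.02 and -0.05 in untreated cells, and rose by 0.90 (SE 0.16, adjusted p = 0.00963). Pgam1, phosphoglycerate mutase, rose by 0.90 (SE 0.21, adjusted p = 0.0432) and Eno1b, an enolase gene near-identical to Eno1, by 0.91 (SE 0.16, adjusted p = 0.00633). A cDNA probe cannot tell such copies apart, and Gapdh likewise has many. Of 18 measured glycolytic genes 4 rose by gene, namely Aldoa, Eno1b, Pgam1 and Pkm, and 14 did not pass, with a median of 0.07. The same list had 0 calls with uncentred values (median -0.14) and 0 after quantile normalization (median 0.05), whereas the Gapdh probe passed under both, at 1.24 and 1.57.

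Other higher genes that passed both tests had varied roles. Mid1, a microtubule-bound ubiquitin ligase, read 1.34, 1.15, 1.45 and 1.26 at 1 h, against 0.02, 0.14 and 0.07 in untreated cells. It rose by 1.23 (SE 0.14, adjusted p = 9.4e-05), while its other 2 probes, at 1.07 (SE 1.01) and 0.13 (SE 0.57), did not pass. Eif4a1, the RNA helicase of translation initiation, rose by 0.88 (SE 0.18, adjusted p = 0.0192). Pcna, the replication clamp, had a gene mean difference of 0.76 (SE 0.18, adjusted p = 0.0467) and was the 1 of 33 measured replication genes that passed. In the actin list of 29 measured genes, profilin (Pfn1) and cardiac actin (Actc1) rose by gene, by 0.57 and 0.67, gelsolin (Gsn), which severs filaments, fell by 0.61, and 26 did not pass. The cytoplasmic actin gene Actb just missed the threshold on one probe, at 0.58 (SE 0.14, adjusted p = 0.0504), and differed by 0.09 on the other.

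Of the 15 named genes with the greatest rises, 13 did not pass against 0, and 9 of these had a 1 h mean within 0.5 of 0, with untreated means below -1. Zkscan1, a zinc finger gene, read -0.26, 0.06, -0.39 and -0.22 at 1 h, against -3.45, -1.08 and -1.28 in untreated cells. Its difference was 1.77 (SE 0.36, adjusted p = 0.0185), while the 1 h ratio against 0 was -0.20 (adjusted p = 0.9), and its other probe differed by -0.05. Of the 79 higher probes, 30 did not pass against 0 with the same sign, and 26 of these 30 had a 1 h mean within 0.5 of 0. The 4 with higher 1 h means were Krt17 (1.40), H1f10 (0.82), Lbr (0.79) and Cchcr1 (0.50). Bcas3, Cchcr1, H1f10, Itsn1, Klhdc7a, Krt17, Lbr, Max, Slc38a9, Them7, Zfp286, Zfp410 and Zkscan1 were the named ones among them with differences of at least 1.28. Krt17, an epithelial keratin, had the greatest difference, 3.55 (SE 0.75, adjusted p = 0.0415). That estimate takes in the fit's dye term, so it is larger than the gap between the group means of 1.40 and -1.63. Krt17 had 3 values at 1 h, 0.51, 2.10 and 1.59, against -1.94, -1.24 and -1.70 in untreated cells. Its ratio at 1 h against 0 was 1.66 (SE 0.53, adjusted p = 0.157). H1f10, a linker histone gene, ranged from -0.11 to 2.43 at 1 h, against -2.76 to -1.30 in untreated cells.

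Further probes of the same genes were counted for both kinds of call. For 27 genes that were lower also against 0, 28 of 38 other tested probes had the same sign and 12 passed. For 10 genes that were higher also against 0, 10 of 12 other probes had the same sign and 1 passed. Among 15 genes that were higher but not against 0, 11 of 23 other probes had the same sign and 0 passed. Among 14 genes that were lower but not against 0, 11 of 18 other probes had the same sign and 0 passed. Over all probes tested 1.07% passed, and the share of same signs over all genes with several probes was not counted. Slc38a9, an amino acid sensor of the lysosome, differed by 2.42 on one probe and by 0.04 on the other, and Max, the partner of MYC, by 1.72 and 0.18.

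Most ribosomal protein genes had small negative differences. Of 54 measured genes 6 fell, 48 did not pass and 44 had a negative difference, against 47.8% of all 9201 genes, and the median was -0.38. The list's median lay at -0.12, -0.23, -0.21 and -0.26 on the 1 h arrays, against -0.01, 0.30 and 0.23 on the untreated arrays. The median was below 0 on all 4 arrays at 1 h and above 0 on the 2 Cy3 untreated arrays. Rps3a1, of the small subunit, read -0.23, -0.44, -0.54 and -0.46 at 1 h, against 0.11, 0.69 and 0.68 in untreated cells, and fell by 0.93 (SE 0.16, adjusted p = 0.00747). Rps14 fell by 0.84 (SE 0.13, adjusted p = 0.00328) on a probe whose partner, at 1.04 (SE 1.07), did not pass, and Rpl39 fell by 0.78 (SE 0.15, adjusted p = 0.0157). Rps6 fell by 0.76 on one probe (SE 0.15, adjusted p = 0.0143), with a 1 h ratio against 0 of -0.33 that did not pass (adjusted p = 0.0916). Its other probe, at -0.37, did not pass (adjusted p = 0.818). By gene, neither Rps14 (0.10, adjusted p = 0.967) nor Rps6 (-0.55, adjusted p = 0.405) was among the 6 that fell. Ribosomal protein genes have many processed copies in the genome, so a probe may measure several. Among 28 translation factors Eef1a1, Eif3e, Eif3h and Tpt1 fell, Eif4a1 rose and 23 did not pass. Of 56 measured genes of oxidative phosphorylation only Ndufa6, of complex I, fell, by 0.77 (SE 0.15, adjusted p = 0.0153).

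**Figure D3:**
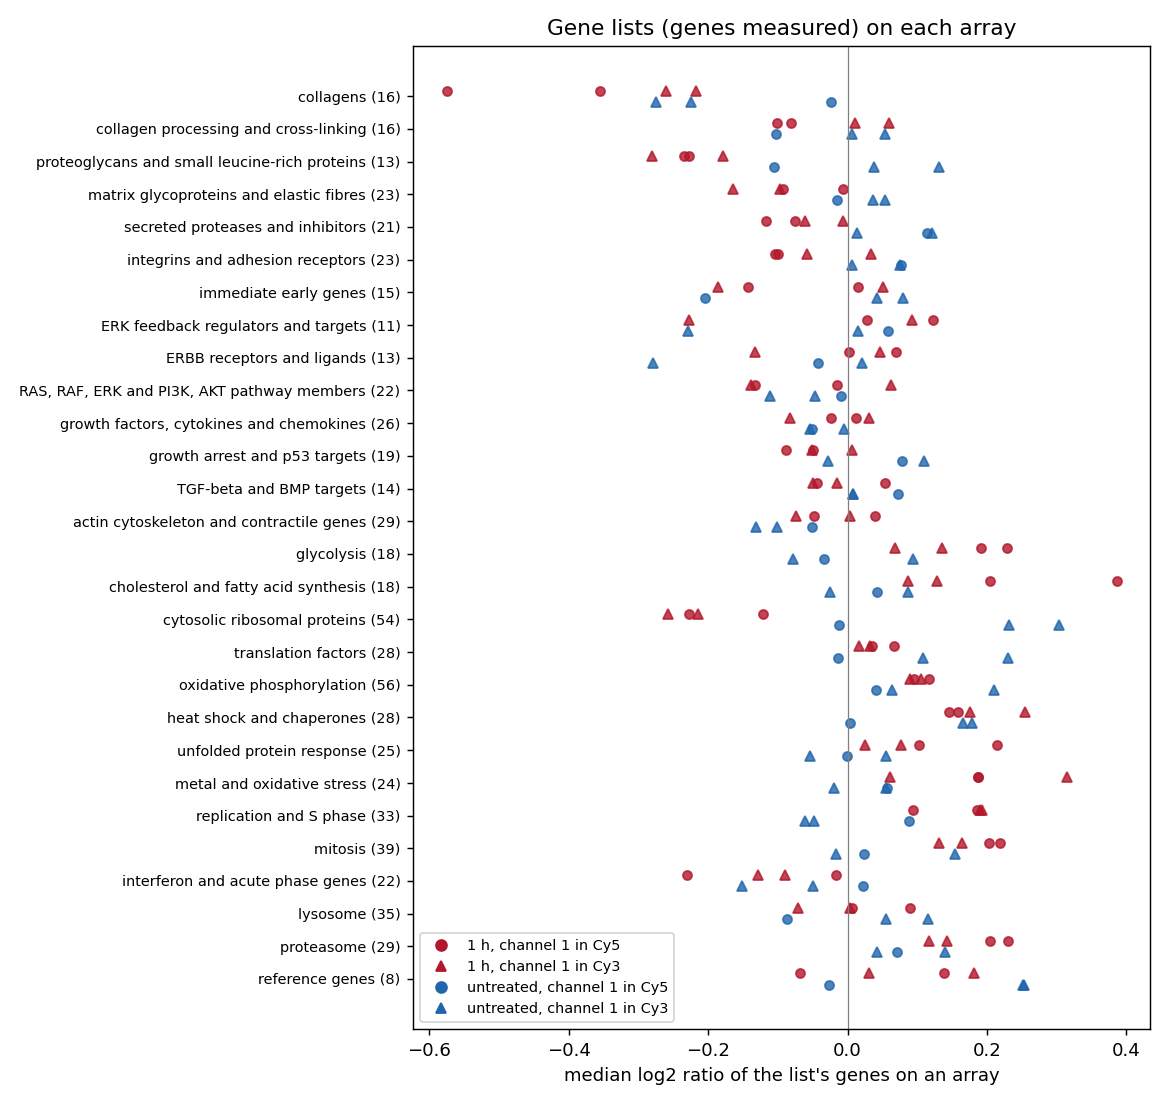
Median log2 ratio of each gene list (probes of a gene averaged, number of measured genes in brackets) on each 1 h array (red, upper row of each pair) and each untreated array (blue, lower row); circles are Cy5 and triangles Cy3 arrays. Ribosomal protein genes lie between -0.26 and -0.12 at 1 h and between -0.01 and 0.30 in untreated cells, while most other lists overlap.

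In the stress and cell cycle lists limma called 0 genes among 28 heat shock genes, 25 of the unfolded protein response, 24 of metal and oxidative stress, 39 of mitosis, 29 of the proteasome and 22 of interferon and acute phase. Their median differences were 0.04, 0.04, 0.22, 0.17, 0.20 and -0.16 in that order. Against 0, 4 heat shock, 4 metal and oxidative stress and 4 mitosis genes were higher. So were 1 of the unfolded protein response and 1 of the proteasome. Lower against 0 were 1 metal and oxidative stress gene and 1 interferon and acute phase gene. Of all 9201 genes, 131 were higher and 95 lower against 0. The 18 genes of cholesterol and fatty acid synthesis also had 0 calls, with a median of 0.16 and 14 positive differences. Against 0, 2 of them were higher. The medians of this list on the 1 h arrays, 0.39, 0.20, 0.09 and 0.13, reached down to the untreated values of 0.04, 0.09 and -0.02.

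Of the 14 measured fibroblast markers 6 fell, namely Col1a1, Col1a2, Col3a1, Dcn, Fn1 and Postn, which are the matrix genes above; 8 did not pass, and the median was -0.44. The 8 were Pdgfra at -0.84 (SE 0.58), Pdgfrb at -0.31, Prrx1 at -0.18, Vim at -0.17, Fap at -0.15, Thy1 at -0.08, S100a4 at 0.13 and Twist1 at 0.55 (SE 1.36), with adjusted p from 0.412 to 0.949. Markers of epithelium, endothelium, blood and macrophages, liver, muscle, brain and kidney had 0 calls among 10, 7, 6, 8, 9, 6 and 3 measured genes. Ratios of 2 RNA pools give no level of a marker in the cells, so the labelled cell type could not be checked, and fewer cells of a type and less RNA per cell cannot be told apart.

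The 1 h arrays were also compared with their neighbours in time, the 4 arrays of 2 h and the 4 arrays of 4 h of tetracycline. The contrast of 1 h minus the mean of 2 and 4 h takes in no untreated mean but shares the 1 h arrays with the comparison above. Its spread and dye term come from the same fit, which includes the untreated arrays. Of 18814 probes 51 passed (0.271%), 2 higher at 1 h (0.0106%) and 49 lower (0.26%). The count was 7 to 13 when any one 1 h array was left out, so most of these calls needed all 4 arrays. With the replicate number as a block it was 19, with uncentred values 2 and after quantile normalization 20. One of the 2 higher probes was that of Egr1. Its 1 h mean was -0.55 ± 0.21 (SD, n = 4), while the means at 2, 4, 12 and 24 h were -2.60, -3.25, -2.56 and -3.67. Egr1 was thus higher at 1 h than at 2 and 4 h by 2.37 (SE 0.20, adjusted p = 1.16e-05).

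Rgs2 was below 0 at 1 h and above 0 at the later times of the first day. Its group means were -0.86 ± 0.19 at 1 h and 0.61, 0.15, 0.27 and 0.51 at 2, 4, 12 and 24 h. The difference of 1 h from 2 and 4 h was -1.24 (SE 0.13, adjusted p = 0.000155) on one probe and -1.20 (SE 0.18, adjusted p = 0.00935) on the other. Vim, for the intermediate filament protein of fibroblasts, differed little between 1 h and untreated cells, by -0.24 and -0.10, without passing. Its 2 h and 4 h means were 0.43 and 0.53, and 1 h differed from them by -0.71 (SE 0.10, adjusted p = 0.0057) and, on the second probe, by -0.62 (SE 0.07, adjusted p = 0.000498). S100a6, a calcium-binding protein, had a 1 h mean of 0.02, against 0.93 at 2 h and 0.70 at 4 h, a difference of -0.80 (SE 0.14, adjusted p = 0.0205). Rps26, of the small ribosomal subunit, was lower at 1 h than at 2 and 4 h on 2 of 3 probes, with differences of -0.63 and -0.79.

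Matrix genes took different courses after 1 h. Col1a2 had means of -1.45 ± 0.07 at 1 h, -1.28 at 2 h and -1.20 at 4 h, then -0.19 at 12 h and 0.02 at 24 h. Its 1 h value did not pass against 2 and 4 h (difference -0.21, adjusted p = 0.64). Postn stayed low, at -1.90 ± 0.21 at 1 h and -2.08, -1.62, -1.85 and -1.80 at 2, 4, 12 and 24 h. Dcn was lowest at 1 h, at -1.87 ± 0.09, with -1.30, -1.13, -0.60 and -0.83 afterwards, and its difference from 2 and 4 h of -0.65 just missed the threshold (adjusted p = 0.0506). Lox differed from 2 and 4 h by -0.84 (SE 0.16, adjusted p = 0.038) on the probe given above, and its other 2 probes, at -0.52 and -0.66, did not pass. Sparc, with means of -1.08 at 1 h, -0.54 at 2 h and -0.46 at 4 h, differed by -0.58 (SE 0.11, adjusted p = 0.0383) on one probe. Its other tested probes, at -0.14 (adjusted p = 0.913) and -0.44 (adjusted p = 0.12), did not pass. Gas1 differed by -0.63 (SE 0.10, adjusted p = 0.016) and Mmp2 by -0.43 (SE 0.09, adjusted p = 0.0481). Gapdh differed from 2 and 4 h by -0.29 (SE 0.08) and did not pass (adjusted p = 0.144).

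**Figure D4:**
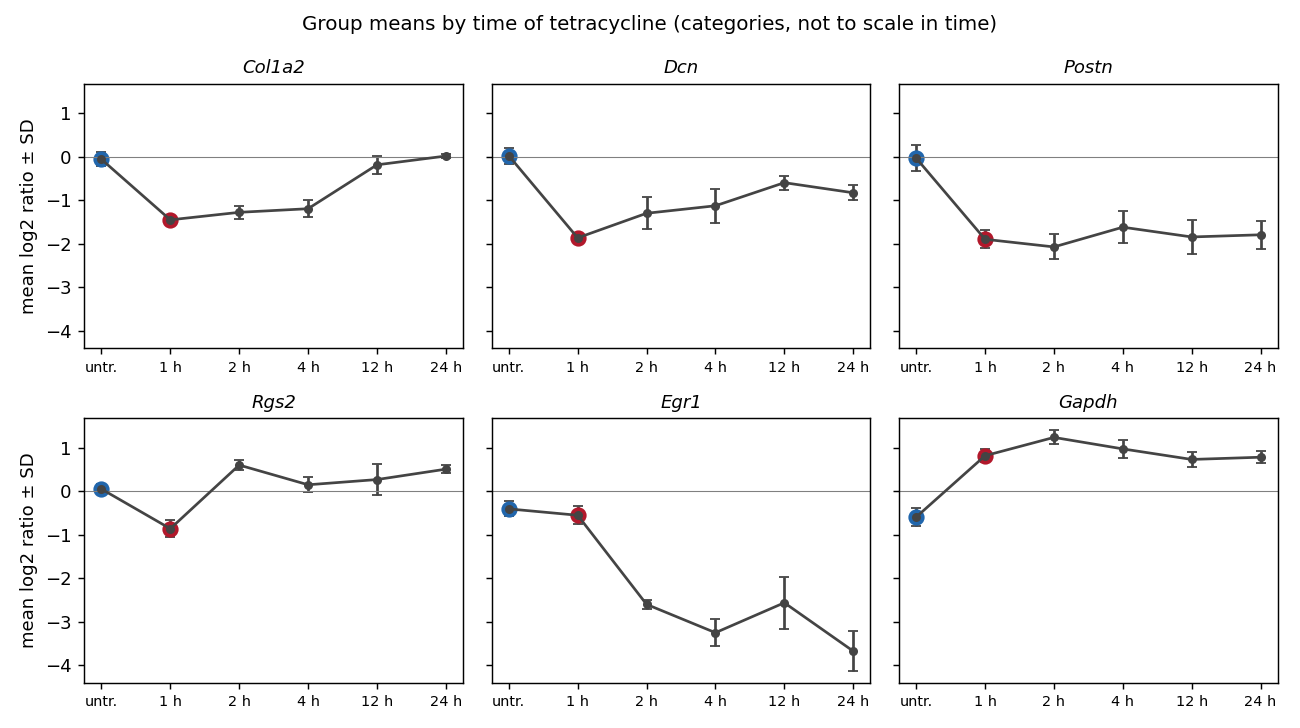
Mean log2 ratio and SD of untreated cells (blue, n = 3) and of cells after 1 h (red), 2, 4, 12 and 24 h of tetracycline (n = 4 each) for 6 named genes; times are categories. Rgs2 is below 0 only at 1 h, Egr1 is near its untreated value at 1 h and below -2.5 from 2 h on, and Col1a2 returns to 0 by 24 h.

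Among the named genes, only lower ones kept their call under every alternative counted here. The alternatives did not bear equally on both directions. With uncentred values the median difference over all probes was -0.215, which favours lower calls. Untreated array 1 was then the mean of 2 columns 0.771 apart, so its offset was arbitrary. Of the 58 named genes that passed, 24 higher and 34 lower, 13 kept their call under all 21 alternatives other than the fit of the 2 groups alone and the fit with unturned Cy3 arrays. All 13 were lower, namely Adamts1, Atoh8, Col1a1, Col1a2, Col3a1, Col5a2, Dcn, Dpt, Gas1, Itm2b, Lox, Naprt and Postn. Gapdh and Mid1, among the higher genes, lost their call only where the probes of the gene were averaged. Leaving out 1 h replicate 1, 2, 3 or 4 ended 9, 13, 19 or 14 of the 58 calls, and leaving out untreated array 1, 3 or 4 ended 0, 23 or 25. Among the matrix and adhesion genes, Fbln5, Fn1, Mmp2, Serpinh1 and Vcam1 lost their call in at least 1 of these fits, with highest adjusted p of 0.0811, 0.15, 0.151, 0.0873 and 0.113. The same was true of Ccng1 (0.125), Gsn (0.0846) and Ndufa6 (0.0874). Among ribosomal and translation genes it was true of Rps3a1 (0.0521), Rps6 (0.0896), Rps26 (0.0855), Rpl39 (0.101), Eef1a1 (0.0657), Eif3h (0.107) and Eif4a1 (0.124). Of the higher genes that also passed against 0, Errfi1 (0.126), Hsp90aa1 (0.13), Pgam1 (0.198) and Actc1 (0.075) lost theirs. Of the higher genes that did not, Zfp410 (0.259), Zfp286 (0.256), Lbr (0.163), Krt17 (0.152), Slc38a9 (0.126), Cchcr1 (0.12) and Them7 (0.113) lost theirs too. So did Itsn1 (0.0707), Pfn1 (0.0694), H1f10 (0.0671), Zkscan1 (0.0569), Klhdc7a (0.0539) and Max (0.0519), while Bcas3 kept its call (0.0488). Uncentred values and quantile normalization each ended the calls of Actc1, Eif4a1, Eno1b, Hsp90aa1, Pgam1 and Pkm, whose differences stayed positive.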

How the data were processed

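Total RNA was hybridised to dual-colour cDNA arrays. The authors deposited log2 ratios; which channel is the numerator, the software, background correction and normalization are not given in the sources used here. Probes were named through GEO's platform annotation, with symbols updated by Entrez ID: of 20355 probes 14030 had 1 symbol, 5 several and 6320 none. The 2807 values above 12 were dropped, arrays centred on their median, and Cy3 arrays multiplied by -1. The main fit used limma 3.58.1 in R 4.3.3 (lmFit, eBayes) with group means and 1 dye term for each probe, over 23 arrays (1, 2, 4, 12 and 24 h, 4 each, and 3 untreated). The arrays of 3, 5 and 7 d were left out, since they are more spread and those of 5 and 7 d have values displaced against the probe rows, which were moved back in the alternative with all arrays. Alternatives are given at the end.

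Named genes were the 15 greatest higher and lower calls without overlap, up to 4 called genes per list, 21 genes listed by name, and up to 5 per direction against 2 and 4 h. The members and lists were chosen with earlier results of these data known. Lists got no set test. Sequences are from RefSeq (GRCm38.p6); 46 of 69 named genes have a promoter in its table.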

Additional observations from a re-analysis of the deposited data

Results flagged for a closer look

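Of the 65 named genes with 4 values at 1 h, 3 had 1 array far from the other 3, where chance gives about 1 in 20. Gsn was at -0.71 on 1 h replicate 3, with the others from -0.50 to -0.49. Klhdc7a was at 0.05 on 1 h replicate 3, with the others from -0.20 to -0.19. Pfn1 was at 0.20 on 1 h replicate 2, with the others from 0.34 to 0.37.

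Several named genes differed between 1 h and the mean of 2 and 4 h by limma's test of that difference, on a log2 scale with 1 h first. Egr1 was higher at 1 h by 2.37. Lower at 1 h were Rgs2 (-1.24 and -1.20 on 2 probes), Lox (-0.84), S100a6 (-0.80), Rps26 (-0.79 and -0.63), Vim (-0.71 and -0.62), Actb (-0.66), Gas1 (-0.63), Sparc (-0.58), Fn1 (-0.54), Rps14 (-0.53), Col1a1 (-0.52), Rpl13a (-0.50) and Mmp2 (-0.43). Only probes that passed are listed, and other tested probes of Lox, Rps26, Actb, Sparc, Fn1, Rps14, Col1a1 and Rpl13a did not pass. Actb, Rpl13a and Gapdh are often used as reference genes. Against untreated cells the listed Actb probe differed by 0.09 and did not pass (adjusted p = 0.875). The other Actb probe, at 0.58, just missed the threshold (adjusted p = 0.0504). The listed Rpl13a probe fell by 0.67 (adjusted p = 0.00199). The tested Gapdh probes rose by 1.45 (adjusted p = 3.77e-07) and 1.03 (adjusted p = 0.000571).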

How the results depend on the processing

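The 1 h against untreated count of 196 probes was lower with all arrays in the fit (37), with the 3 d arrays added (39), with only the arrays of the 2 groups (0; 1115 at an unadjusted p under 0.05), after quantile normalization (104) and by gene (88). It was higher with array weights (785), against 0 (508) and with Cy3 arrays not turned (1286). Leaving out 1 array gave 101 (untreated array 4) to 2521 (untreated array 1). Within 1.5 times of 196 were the counts without a dye effect (177), with a dye effect for each group (272), with uncentred values (236), with a value required on every array (202), with no minimum of values (264), with values above 12 kept (203) and with untreated replicates 1 and 2 as 2 arrays (261). The 51 probes of 1 h against 2 and 4 h became 2 with all arrays, 3 with 3 d added, 31 without a dye effect, 213 with a dye effect for each group, 0 with Cy3 arrays not turned (837 at an unadjusted p under 0.05), 2 with uncentred values, 20 after quantile normalization, 323 with array weights, and 7 to 13 with 1 array left out. The interquartile range of the arrays of 3 to 7 d was 0.697 to 1.419, against 0.357 to 0.504 at 1 to 24 h; the cause of the changes was not tested.

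Same-numbered arrays share a dye. The deviations of 1 h and untreated arrays of the same number correlated at -0.098, -0.055 and -0.108, so the numbers were not taken to pair them. With the 2 h arrays of the same number the 1 h deviations correlated at 0.104, 0.070, 0.099 and 0.139. With those of 4 h the values were 0.055, 0.085, 0.090 and 0.083. The main fit did not pair these arrays either. With the replicate number as a block in place of the dye effect, 162 probes passed against untreated cells and 19 against 2 and 4 h.

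Not turning the Cy3 arrays reversed 54 of the 58 named genes that had passed. In that fit 1 h values that swap sign with the dye cancel, so it does not bear on which channel is the numerator. Lower genes became Naprt 0.91, Adamts1 0.68, Dpt 0.65, Rps3a1 0.52, Postn 0.51, Lox 0.51, Dcn 0.48, Rpl39 0.46, Eif3e 0.43, Rps6 0.41, Col1a2 0.40, Eef1a1 0.39, Vcam1 0.39, Rps14 0.38, Col5a2 0.37, Ndufa6 0.37, Itm2b 0.33, Rps26 0.32, Rpl13a 0.32, Lpl 0.32, Ccng1 0.28, Eif3h 0.27, Gas1 0.27, Atoh8 0.26, Gsn 0.22, Col1a1 0.20, Col2a1 0.18, Fbln5 0.18, Col3a1 0.17, Serpinh1 0.08, Sparc 0.073, Fn1 0.041, Mmp2 0.009. Higher genes became Slc38a9 -1.88, Them7 -1.71, H1f10 -1.46, Cchcr1 -0.96, Max -0.94, Zfp286 -0.82, Lbr -0.65, Itsn1 -0.63, Pfn1 -0.53, Eno1b -0.50, Eif4a1 -0.49, Pgam1 -0.48, Bcas3 -0.43, Mid1 -0.37, Gapdh -0.36, Hsp90aa1 -0.34, Krt17 -0.26, Actc1 -0.19, Zfp410 -0.18, Ctsl -0.12, Pkm -0.11. Against 2 and 4 h Lox became 0.18, Rps26 0.087 and S100a6 0.018. Against 0 the signs of Itsn1 (-0.058), Klhdc7a (-0.13) and Zkscan1 (-0.20) were reversed, and averaging probes reversed Rps14 (0.10). In the other alternatives run for the 58 genes no sign was reversed. Arrays give no read depth; signal over background was not analysed here.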
